A study of Mus musculus with 2 samples.

Results

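The nuclear genes of the mitochondrial respiratory chain were examined in epididymal white adipose tissue of male mice, the fat pad that lies beside the epididymis and testis. Members were the probe sets annotated to 1 gene whose symbol names a subunit of complexes I to V, an Ndufaf assembly factor of complex I, or cytochrome c in its somatic (Cycs) or testis (Cyct) form. The rule found 161 of 22690 probe sets, for 87 of 12394 genes. The wild-type pool held RNA of mice labelled 129S1/SvJae, 12 to 16 weeks old. The knockout pool held RNA of mice lacking the nuclear receptor PPARb/d (gene Ppard) on a mixed Sv129/C57BL/6 background, 12 weeks old. All animals ate standard chow. The series' design text describes the controls as littermates, so the sources differ on strain, and the sources used here do not give how the knockout allele was made. The RNA of 5 animals per genotype was combined, and 1 Affymetrix array was run on each of the pools. There is thus no spread between samples and no test, and the number of arrays limits the precision. Where an intensity is given as a pair, the wild-type pool comes first and the knockout pool next. A difference is the log2 intensity of the knockout pool less that of the wild-type pool.

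The respiratory chain passes electrons from NADH (complex I) and succinate (complex II) through ubiquinol and complex III to cytochrome c, from which complex IV, cytochrome c oxidase, reduces oxygen. Complexes I, III and IV pump protons across the inner mitochondrial membrane, and complex V, the ATP synthase, uses the return of the protons to make ATP. White adipocytes hold few mitochondria per cell compared with brown adipocytes, and use them for fatty acid oxidation and for the carbon supply of lipid synthesis. Several chain proteins exist as tissue isoforms: spermatocytes and spermatids replace somatic cytochrome c and some cytochrome oxidase subunits with forms made only in the male germ line, and striated muscle has its own set.

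Most subunits of the chain were slightly lower in the knockout pool, whereas the 3 measured testis isoforms were higher by at least 2.02-fold (Cox8c), at least 7.17-fold (Cyct) and 29.3-fold (Cox6b2). A gene was kept where a probe set reached an intensity of 32, that is log2 5, on at least 1 array, and was represented by its brightest such probe set. This left 81 of the 87 members and 6533 genes in all. Of the 81 kept members 59 were lower in the knockout pool, 72.8%, where 55.5% of all 6533 genes were lower. The median difference of the kept members was -0.23 (quartiles -0.38 and 0.03), beside -0.08 over all genes. The differences were small: 1 member, Ndufaf4, was at least 2-fold lower, against 9.14% of all genes, and 4 members were at least 2-fold higher (Cox6b2, Cox8c, Cyct and Ndufaf3), against 13.7% of all genes. Centring the differences on the median of all genes left 61.7% of the kept members lower beside 50.0% of all genes, and removing the trend with intensity left 58.0% beside 48.0%. Cyct, Cox8c and Ndufb1 passed the floor through the knockout array only. The 6 members below the floor on both arrays were the isoforms Cox4i2, Cox6a2, Cox7a1 and Cox8b, the general subunit Cox7c, and the assembly factor Ndufaf5.

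**Figure D1:**
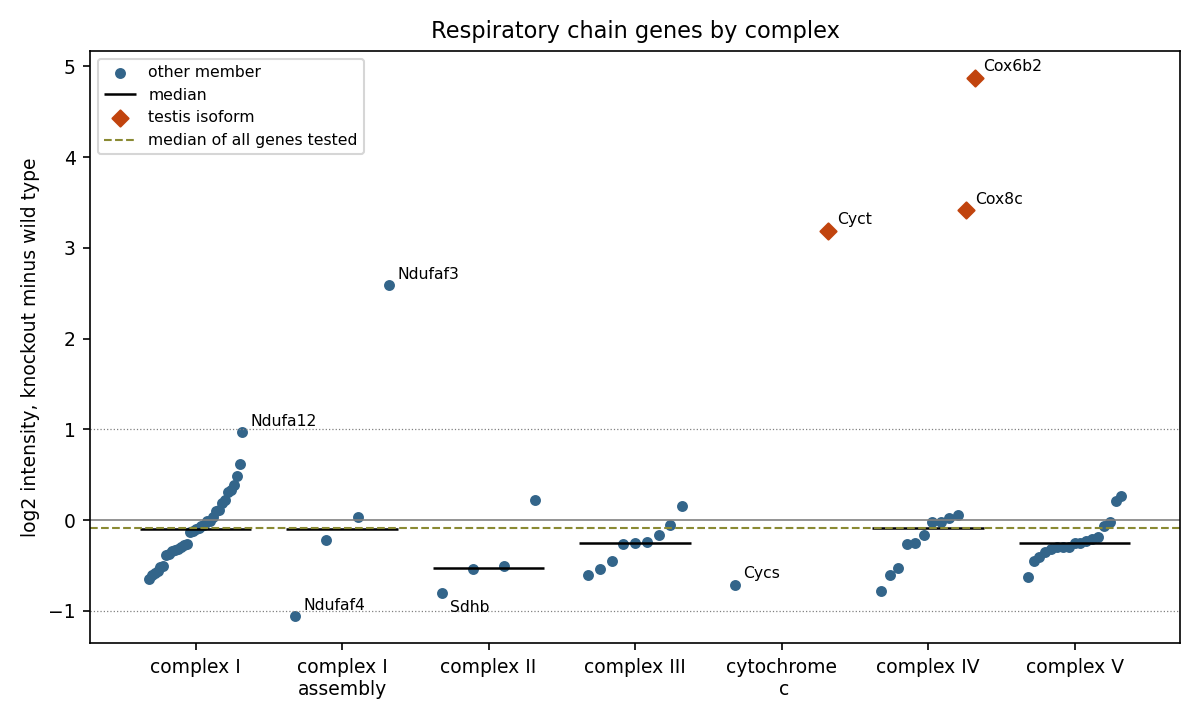
Log2 difference (knockout minus wild-type pool, y axis) of each of the 81 kept member genes, arranged by complex. Each point is 1 gene from 1 array per genotype, diamonds are testis isoforms, black bars are medians of groups with more than 2 genes, dotted lines mark 2-fold, and the dashed line is the median of all genes (-0.08). Cyct and Cox8c are drawn at their measured values although their wild-type intensity is below the floor, which bounds them at 2.84 and 1.02 or more. The members other than the testis isoforms, Ndufaf3 and Ndufaf4 lie between -0.81 and 0.97.

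Markers of other cells differed between the same pools. Of 17 measured germ cell markers 16 exceeded the wild-type pool by 2-fold or more, beside 13.7% of all genes, the exception being Crem. The summed intensities of the 17 markers were 3532 and 62111. On the wild-type array 11 of them reached the floor, on the knockout array all 17. Acrv1, Ddx4, Hspa1l, Sycp1, Tssk2 and Tssk6 passed through the knockout array only. This fixed their direction, so the count of 16 is not a test of direction, though the size of their differences was not fixed. With the floor in place of the wild-type value, the smallest fold among them was 2.60, for Sycp1. Of 12 measured adipocyte markers 11 were lower (beside 55.5% of all genes) and 7 at least 2-fold lower (beside 9.14%). Their median difference was -1.12 and their summed intensities were 65402 and 42390. All 10 macrophage markers and the 8 kept endothelial markers were lower (beside 55.5% of all genes), with medians of -0.86 and -1.07. Of the macrophage markers, Cd14, Cd163 and Mpeg1 passed the floor through the wild-type array only, so their direction was fixed. The 8 epididymis markers summed to 49089 and 57087. Of these 8, 7 were higher, 1 of them by 2-fold or more (beside 13.7% of all genes), with a median of 0.32. Neither array reached the floor for 11 of 12 skeletal muscle markers or for 5 of 6 brown and beige adipocyte markers, Ucp1 included. The part of these markers in the differences of the chain genes was not tested. In a pool of whole tissue, fewer cells of a type and less RNA per cell cannot be told apart. Ppard was at 6.58 and 6.27, below the floor on both arrays, and so gives no check of the genotype labels.

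**Figure D2:**
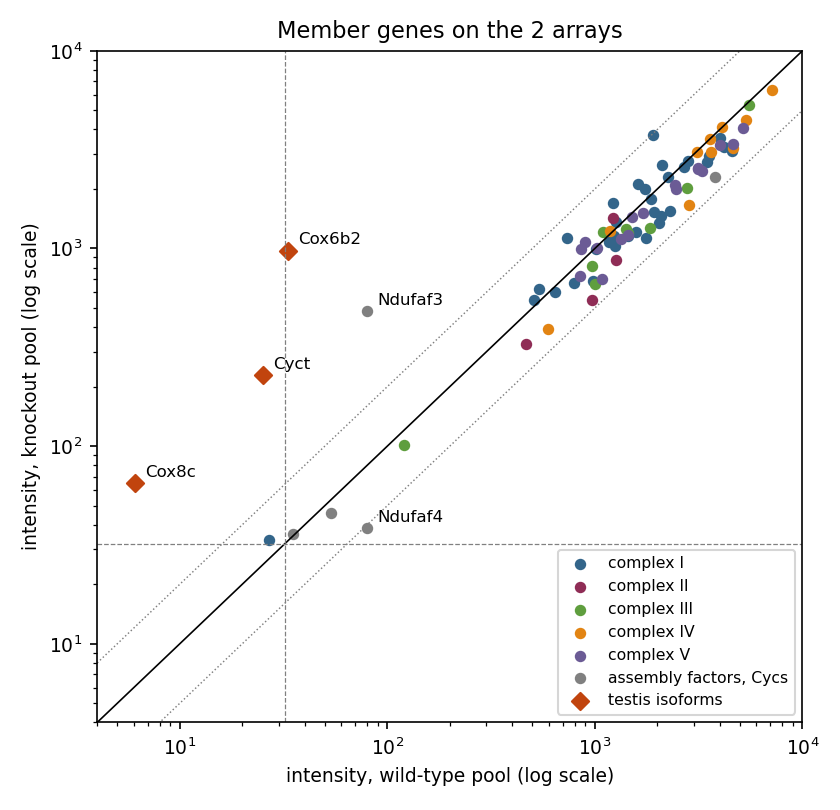
Intensity of each kept member gene in the wild-type pool (x axis, log scale) and the knockout pool (y axis, log scale). The solid line marks equal intensity, dotted lines 2-fold, and dashed lines the floor of 32. The subunits lie close to the diagonal, mostly just below it, and Cox6b2, Cyct, Cox8c and Ndufaf3 lie above the upper 2-fold line.

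The testis isoforms were higher in the knockout pool while their general partners were lower. Cyct, the cytochrome c of male germ cells, was at 25.1 and 229.5. Its wild-type value was under the floor, so the knockout pool was at least 7.17-fold higher. Its somatic partner Cycs was at 3777 and 2308, 1.64-fold lower, and its 3 probe sets differed by -0.71 to -0.39. The cytochrome c genes thus differed in opposite directions, by at least 2.84 and by -0.71 on the log2 scale. Cox6b2, the testis form of the subunit that links the monomers of the cytochrome oxidase dimer, was at 33.2 and 974, 29.3-fold higher and the largest difference among the kept members. Its general partner Cox6b1 was at 4638 and 3220, a difference of -0.53, with -0.51 at its other probe set. Cox8c, a testis form of the smallest oxidase subunit, was at 6.07 and 64.7, at least 2.02-fold higher, and Cox8a, the general form, was at 597 and 392, 1.52-fold lower. In each of the 3 pairs the testis isoform was higher and the partner lower. This count is not a test of direction, because Cyct and Cox8c passed the floor through the knockout array only. Being kept in that way fixed their direction, though not the size of their differences. Cox6b2 was above the floor on both arrays, but its wild-type value of 33.2 was only just above it. Each testis isoform has 1 probe set, so no second measurement of it exists on these arrays. Cox7b2, the other testis isoform of complex IV, has no probe set among the members.

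The muscle, brown fat and lung isoforms were too dim on both arrays for a direction to be read. Cox6a2 was at 7.64 and 7.81, Cox7a1 at 12.5 and 13.3, and Cox8b at 23.5 and 19.0, forms used by striated muscle and in part by brown fat. Cox4i2, the lung form, was at 10.2 and 10.1. All of these intensities were below the floor, so no fold is given.

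**Figure D3:**
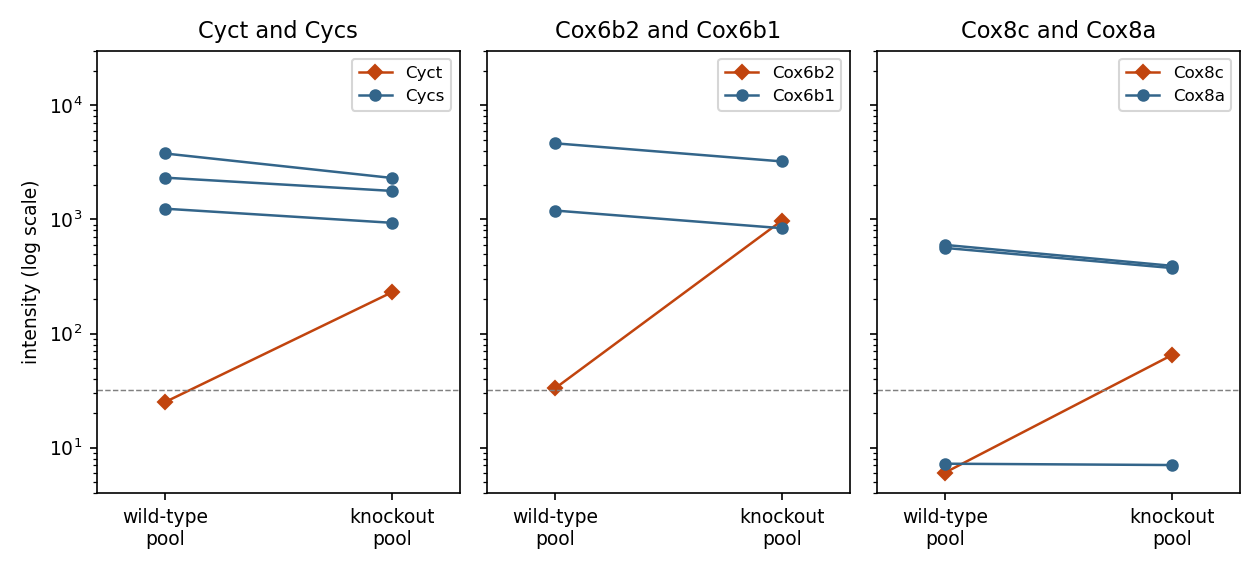
Intensity (y axis, log scale) in the wild-type and knockout pools for Cyct and Cycs, Cox6b2 and Cox6b1, and Cox8c and Cox8a. Each line is 1 probe set, diamonds are the testis isoform, circles the general isoform, and the dashed line is the floor of 32. Every testis line goes up from the wild-type to the knockout pool and every general line above the floor goes down; 1 probe set of Cox8a is below the floor on both arrays.

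Outside the chain, 5 testis isozymes of energy metabolism were measured, each higher by 2-fold or more with the knockout, beside 13.7% of all genes. Pdha2, the testis form of the pyruvate dehydrogenase subunit E1 alpha, was at 7.90 and 424, at least 13.2-fold higher, and Ldhc, the testis lactate dehydrogenase, was at 519 and 6623. The somatic gene Pdha1 was at 1242 and 771. The 5 isozymes summed to 665 and 14173. Among them, Pdha2 and Gk2 passed the floor through the knockout array only. Ldhc and Pgk2 are also counted among the germ cell markers above.

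Cyct, Cox6b2, Cox8c and Ndufaf3 were the members past 2-fold higher. The promoters of Cyct and Cox6b2 are printed with those of their partners Cycs and Cox6b1, so that the windows of each pair can be compared, and with that of Ndufaf3. No window was listed for Cox8c, so its pair with Cox8a is not printed. Each sequence is the 250 bases before the annotated start, 5′ to 3′ on the strand of the gene, from RefSeq on GRCm38.p6. All 5 genes lie on the minus strand: Cyct at chr2:76360454-76360703, Cycs at chr6:50566570-50566819, Cox6b2 at chr7:4753095-4753344, Cox6b1 at chr7:30626115-30626364 and Ndufaf3 at chr9:108567437-108567686. Capitals mark matches, on either strand, to the cAMP response element TGACGTCA, the core GCATGCGC of the site of the transcription factor NRF-1, the ETS site CCGGAAG bound by GABP, the CCAAT box and the TATA box TATAAA.
Cyct: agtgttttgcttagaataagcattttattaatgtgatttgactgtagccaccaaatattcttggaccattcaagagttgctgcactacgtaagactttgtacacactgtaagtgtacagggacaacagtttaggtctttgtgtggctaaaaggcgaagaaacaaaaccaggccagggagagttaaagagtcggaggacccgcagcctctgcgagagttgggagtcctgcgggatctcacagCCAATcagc
Cycs: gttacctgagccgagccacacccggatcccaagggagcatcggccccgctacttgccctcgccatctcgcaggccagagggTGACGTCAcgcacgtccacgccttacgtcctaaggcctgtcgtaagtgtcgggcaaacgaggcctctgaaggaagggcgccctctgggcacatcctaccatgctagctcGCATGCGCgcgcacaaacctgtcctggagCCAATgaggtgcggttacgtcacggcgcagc
Cox6b2: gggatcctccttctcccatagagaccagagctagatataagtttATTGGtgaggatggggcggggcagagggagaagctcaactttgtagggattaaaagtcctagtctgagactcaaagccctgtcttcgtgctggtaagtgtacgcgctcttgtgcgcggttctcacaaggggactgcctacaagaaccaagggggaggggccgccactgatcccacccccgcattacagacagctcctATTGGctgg
Cox6b1: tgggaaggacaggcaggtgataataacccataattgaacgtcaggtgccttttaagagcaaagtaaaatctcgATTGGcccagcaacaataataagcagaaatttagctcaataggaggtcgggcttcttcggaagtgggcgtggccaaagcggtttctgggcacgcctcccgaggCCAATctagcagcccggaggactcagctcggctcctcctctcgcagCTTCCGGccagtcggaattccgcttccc
Ndufaf3: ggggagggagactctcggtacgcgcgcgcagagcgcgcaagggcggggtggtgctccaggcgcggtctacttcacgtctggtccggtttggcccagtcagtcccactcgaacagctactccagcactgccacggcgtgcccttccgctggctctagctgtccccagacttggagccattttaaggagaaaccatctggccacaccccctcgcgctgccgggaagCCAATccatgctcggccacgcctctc

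NRF-1 and GABP are regulators of many nuclear genes for mitochondrial proteins. The Cycs window held the cAMP response element 169 bases before the start and the NRF-1 core 60 bases before it, and the Cyct window held neither. Both windows held 1 CCAAT box, 31 bases before the start in Cycs and 9 in Cyct. Cox6b1 and Cox6b2 held 2 CCAAT boxes each, and Cox6b1 also held the ETS site on the opposite strand. The match in Ndufaf3 was 1 CCAAT box. Windows were listed for 72 of the 87 member genes, 77 in all. The NRF-1 core was in 9 of these 77 windows (11.7%) and in 2.26% of all 32851 windows of this length. The ETS site was in 13 of 77 (16.9%) and in 6.91% of all windows, and the cAMP response element in 4 of 77 (5.19%) and 1.55%. The CCAAT box was in 31 of 77 (40.3%) and in 33.8% of all windows, and the TATA box in 7 of 77 (9.09%) and 12.4%. The motifs overlap no letters in the printed windows. A match describes the letters only, and no match says only that these letters are not in this window.

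The assembly factors of complex I, which build the complex without staying in it, held both a high and a low extreme. Ndufaf3 was at 79.5 and 480, 6.03-fold higher, at its only probe set. Ndufaf4, which is known to bind the Ndufaf3 protein, was at 80.2 and 38.5, 2.08-fold lower, and its other probe set differed by -0.81. The pair of factors thus differed in opposite directions. Ndufaf1 was at 53.5 and 46.0 and Ndufaf7 at 35.1 and 35.8. These intensities were close to the floor, where background correction has most weight. Ndufaf4, at -1.06, lay just past 2-fold, and Ndufa12, at 0.97, just short of it.

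The 33 kept subunits of complex I, the NADH dehydrogenase, were split. In the knockout pool 22 were lower and 11 higher, none by 2-fold, with a median of -0.10 (quartiles -0.35 and 0.11), close to the -0.08 of all genes. The median was 0.05 with the intensity trend removed and -0.28 without probe sets of shared sequence, so its direction depended on the processing.

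Of the 7 core subunits, which carry the flavin and the iron-sulfur clusters, 6 were measured and 5 were lower. Ndufs7, which holds the last cluster before ubiquinone, was at 2086 and 1455, a difference of -0.52. Ndufs8, another iron-sulfur subunit, was at 4201 and 3254, and its 5 kept probe sets differed by -0.56 to -0.04. Both quinone-side cluster subunits were therefore lower at every kept probe set. Ndufs1, the largest subunit, was at 795 and 665. Ndufv1, which binds NADH and the flavin, was at 1172 and 1082, and Ndufs3 was at 1007 and 999. Ndufv2, the partner of Ndufv1, was the one core subunit that was higher, at 2104 and 2657, by 0.34, and its 3 probe sets differed by 0.13 to 0.35.

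Accessory subunits of complex I, which surround the core and are needed for its assembly and stability, ranged from -0.65 to 0.97. The lowest was Ndufb3, at 1771 and 1131, followed by Ndufv3 (2046 and 1348) and Ndufb8 (2302 and 1539). Ndufb7 and Ndufb9, also of the membrane arm, differed by -0.51 and -0.56, and both probe sets of each were lower. The 12 beta and c subunits had a median of -0.22, with 9 lower, and the 12 alpha subunits one of -0.05, with 7 lower. Whether these subgroups differ was not tested.

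The highest accessory subunit was Ndufa12, at 1912 and 3754. Its 3 kept probe sets differed by 0.04 to 0.97, and all carry a suffix for sequence shared with other transcripts. RefSeq lists a copy of this gene, Ndufa12-ps, so the value is uncertain as to the gene. With differences centred, Ndufa12 was past 2-fold. Ndufs5 was at 731 and 1127, a difference of 0.62, but a probe set annotated to both Ndufs5 and its copy Ndufs5-ps, which is no member, was at 829 and 547, a difference of -0.60. The direction of Ndufs5 therefore depended on the probe set. Ndufa7 was higher at all 5 of its probe sets, by 0.09 to 0.39, and Ndufc1 at both, by 0.12 and 0.48.

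Complex II, succinate dehydrogenase, had the lowest median of the complexes, -0.52 over 4 genes. Sdhb, the iron-sulfur subunit, was at 965 and 551, 1.75-fold lower. The membrane anchors Sdhc and Sdhd were at 1268 and 874, and at 466 and 328. All 3 of these subunits were lower at every kept probe set, Sdhc by -1.13 at its dimmer one. Sdha, the flavoprotein that oxidises succinate, was at 1219 and 1419, a difference of 0.22, whereas its other probe set, at 1012 and 605, differed by -0.74. The direction of Sdha was thus not settled by these probe sets. With the dimmest probe set of each gene the median of complex II was -0.78.

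Complex III, which moves electrons from ubiquinol to cytochrome c, was lower in 8 of its 9 kept genes. This was 88.9%, beside 55.5% of all genes, and the median was -0.25. Uqcr11, a small subunit, was at 1003 and 659, a difference of -0.61. Cyc1, the haem-bearing cytochrome c1, was at 1847 and 1272, a difference of -0.54, and Uqcrc2, a core protein, at 2783 and 2031. Uqcrfs1, the Rieske iron-sulfur protein, was at 1445 and 1200. The other core protein, Uqcrc1, was the exception, at 1093 and 1214, a difference of 0.15. Uqcrb differed by -0.06 at its brighter probe set and -0.05 at the other. Uqcr10 was dim, at 120 and 102, and counted as lower from its brightest probe set, at -0.24. Its other probe sets were higher, by 0.23 and by 0.68, the latter passing the floor through the knockout array only. The mean of its 3 probe sets was 0.22, so the direction of Uqcr10 was not settled.

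In complex IV the general isoforms were lower or nearly equal between the pools at their brightest probe sets. The 10 kept general subunits, Cox7a2l included, had a median of -0.21, with 8 lower, and with the testis isoforms counted the median of the complex was -0.09. Ndufa4, named as a complex I subunit but found in complex IV and counted there, was the lowest, at 2833 and 1655, a difference of -0.78. Cox4i1, a regulatory subunit, was at 5351 and 4474, and Cox6a1 at 7108 and 6354. Cox7a2 and the supercomplex factor Cox7a2l were the only general forms that were higher, by 0.02 and 0.06. Their other probe sets were also higher, by 0.27 for Cox7a2 and by 0.07 and 0.17 for Cox7a2l. Cox5a was at 3602 and 3564, a difference of -0.02, but its 3 probe sets ranged from -0.57 to 0.08. The 4 kept probe sets of Cox5b ranged from -0.46 to -0.02, and those of Cox6c differed by -0.25 and 0.18. Cox7c, a subunit of every tissue, was at 16.1 and 16.98, below the floor on both arrays.

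The ATP synthase was the most even of the larger complexes, with 15 of 17 genes lower (88.2%, beside 55.5% of all genes). Its quartiles were -0.32 and -0.18 around a median of -0.26. The alpha and beta subunits of the catalytic head, Atp5a1 and Atp5b, were at 3137 and 2551, and at 3121 and 2535, a difference of -0.30 each. The gamma shaft Atp5c1 was at 5190 and 4054. All 5 subunits of the catalytic part and all 4 of the peripheral stalk were lower, the stalk by -0.30 (Atp5pb) to -0.06 (Atp5o). The c ring, the rotor in the membrane, is encoded by 3 genes whose mature proteins are the same, and these genes differed among themselves. Atp5g2 was at 1083 and 703, a difference of -0.62, the lowest of the complex, and Atp5g3 at 4622 and 3375, a difference of -0.45. Atp5g1 was higher, at 856 and 994, by 0.22. Atp5mpl, a small membrane subunit, was the highest of the complex, at 892 and 1075, by 0.27.

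Most members measured by several probe sets gave 1 direction. Of the 39 members with several kept probe sets, 33 (84.6%) had probe sets of 1 direction only, beside 72.9% of 2137 genes. The SD of the difference among probe sets of a gene had a median of 0.13 for the members and 0.25 for all genes. Opposite directions were seen for Cox5a, Cox6c, Ndufa5, Ndufb5, Sdha and Uqcr10.

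**Figure D4:**
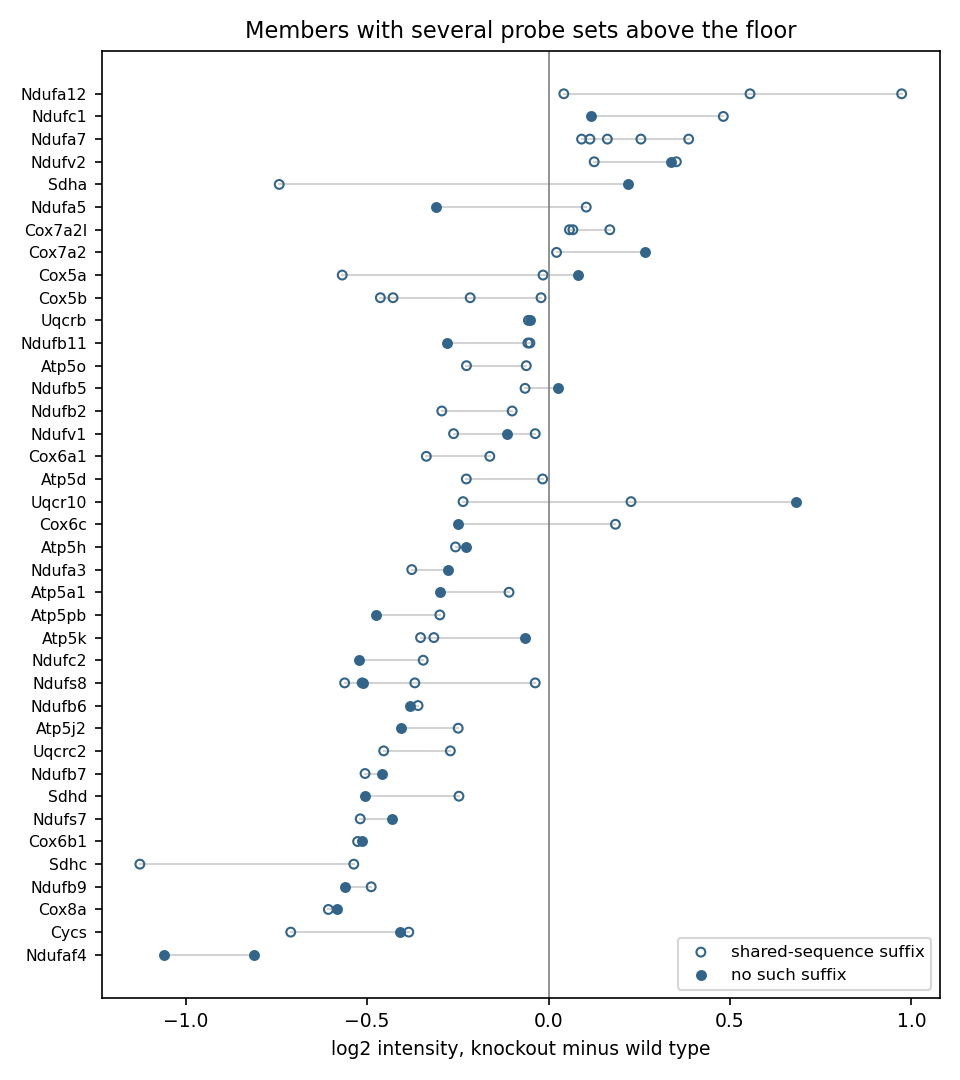
Log2 difference (knockout minus wild-type pool, x axis) at each kept probe set of the 39 member genes with several, 1 row per gene ordered by the brightest probe set. Open circles carry the suffixes _s_at, _x_at or _a_at for sequence shared between transcripts, and filled circles do not. Points of 33 genes lie on 1 side of 0, and Sdha and Uqcr10 reach widely over both sides.

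Most kept genes of neighbouring mitochondrial pathways had lower intensities, few of them by 2-fold. Of 15 kept genes of the citric acid cycle and pyruvate dehydrogenase 12 were lower (80.0%, beside 55.5% of all genes) and 2 at least 2-fold lower (beside 9.14% of all genes), with a median of -0.44. Idh3a, the catalytic subunit of NAD-dependent isocitrate dehydrogenase, was at 1853 and 859, 2.16-fold lower, and Ogdh, the 2-oxoglutarate dehydrogenase, at 1402 and 690. Sucla2, a succinyl-CoA ligase subunit, was higher, at 1900 and 3656. Of 16 kept assembly factors and electron carriers outside the members 14 were lower (87.5%), 1 by 2-fold, with a median of -0.39. Among those lower, Hccs passed the floor through the wild-type array only. The counts past 2-fold are near the share over all genes. The electron transfer flavoprotein, which brings electrons of fatty acid oxidation to ubiquinone, was lower in both subunits, Etfa (4930 and 2721) and Etfb (744 and 418), and in its dehydrogenase Etfdh (205 and 129). Cox19, a copper-related assembly factor, was at 83.0 and 41.4, 2.00-fold lower, while Atpif1, the inhibitor of the ATP synthase, was at 1690 and 2241. The difference between these lists and the chain was not tested.

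Regulators of mitochondrial gene expression were mostly dim. Of 14 measured, 8 were kept, 4 of them lower and 4 higher, none by 2-fold. Gabpb1 and Tfb1m passed the floor through the knockout array only, and Ppargc1a and Tfb2m through the wild-type array only. The directions of these genes were thus fixed by the floor. Ppargc1a, a coactivator of mitochondrial biogenesis, was at 35.6 and 28.1, Tfam, which packs mitochondrial DNA, at 170 and 203, and Nrf1 was below the floor on both arrays, at 21.3 and 18.9. Of the subunits encoded by mitochondrial DNA, ND5 was the one measured, at 8518 and 8381, a difference of -0.02.

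The medians of complexes II, III and V were negative under each of 8 other ways of processing the intensities, from -0.59 to -0.37 for complex II, from -0.25 to -0.09 for complex III and from -0.28 to -0.15 for complex V. Those of complexes I and IV were not: they ranged from -0.28 to 0.05 and from -0.21 to 0.01.

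**Figure D5:**
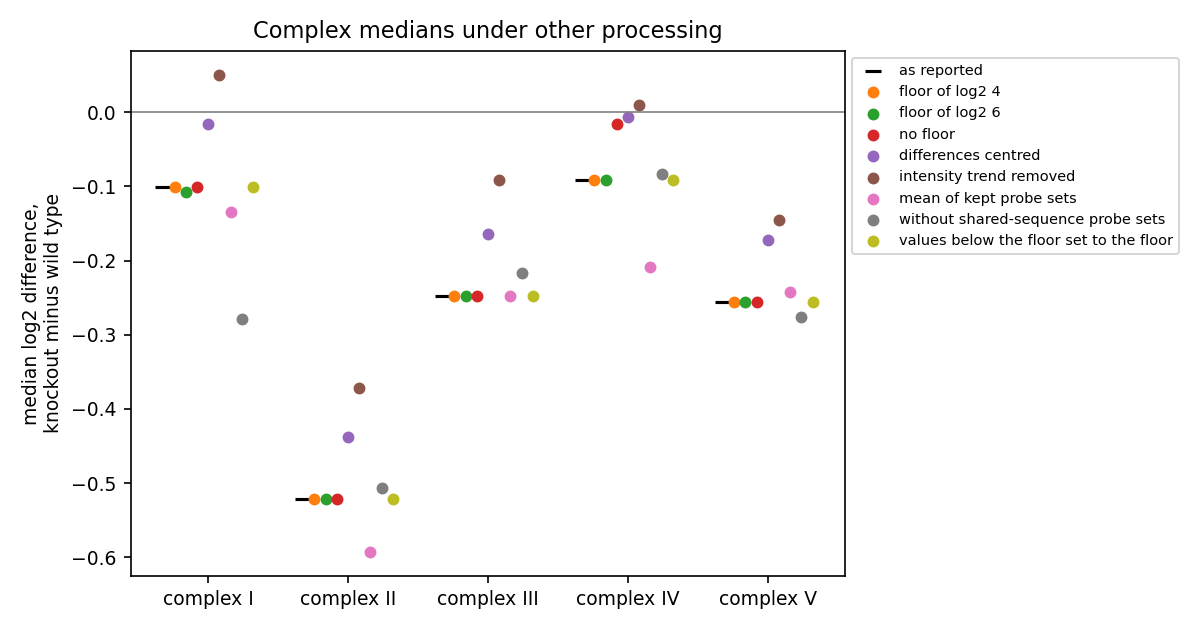
Median log2 difference (knockout minus wild-type pool, y axis) of the kept genes of each complex as reported (black bar) and under each of 8 other processing settings (coloured points). Complex II lies lowest under every setting, and complexes I and IV cross 0 with the intensity trend removed.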

How the data were processed

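The deposited intensities are linear and were computed by the authors; the submitters' processing notes name GCRMA 2.20, and do not say which arrays it was run on together. GCRMA draws dim signals towards a shared background, so differences near the floor are the least certain, and its quantile step assumes that most genes do not differ. Log2 of each intensity was taken. Of 22690 probe sets, 20393 named 1 gene, and symbols were updated by Entrez identifier to GRCm38.p6 records. A probe set was kept at log2 5 or more on at least 1 array, and the brightest kept probe set by mean over both arrays represented its gene. A gene was called different at 2-fold. A fold written "at least" takes the floor in place of a dimmer value.

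With 1 array per genotype there is no test, SD or p-value. Alternatives were floors of log2 4 or 6 or none, centring, removal of the intensity trend (statsmodels lowess, span 0.4), the mean of a gene's probe sets, leaving out shared-sequence probe sets, and setting dim values to the floor. Shared-sequence probe sets were all those with the suffixes _s_at, _x_at or _a_at, and 56 members were kept without them. Sequence shared with other genes was not separated from sequence shared by transcripts of the same gene. An alternative value counted as moved past 0.25, the median SD among probe sets of a gene. All members may be named, and values are given for the isoforms and partners, the core of complex I, complex II, the extremes of each complex, members past 2-fold and members whose probe sets disagree. The members and lists were chosen with earlier results of these data known. The counting was checked on simulated data. pandas 2.3.3 and numpy 2.4.6 were used.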

Additional observations from a re-analysis of the deposited data

How the results depend on the processing

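Of 81 member differences, 66 kept their sign under every alternative that gave them a value (6 to 8 per gene), 46 of 59 lower and 20 of 22 higher ones. No member past 2-fold changed sign. With dim values raised to the floor, Cyct differed by 2.84 and Cox8c by 1.02, and with the intensity trend removed Cox8c differed by 2.90. The count of members at least 2-fold lower was 0 with differences centred, with the trend removed and with the mean of probe sets, Ndufaf4 being then at -0.97, -0.94 and -0.93. Without Cyct, Cox6b2, Cox8c, Ndufaf3 and Ndufaf4, chosen after seeing the data, the counts past 2-fold were 0 lower and 0 higher, and 76.3% of the remaining 76 members were lower. With the dimmest probe set of each gene, also chosen after seeing the data, the median of complex II was -0.78. No paired analysis was possible because each genotype has 1 array. Dim probe sets limit what can be said of the tissue isoforms.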

Other observations

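Noticed after the values were seen, 5 of the 6 kept members on chromosome 17, which also carries Ppard, were higher in the knockout pool. They were Ndufa7 (0.39), Ndufv2 (0.34), Ndufb10 (0.19) and, nearly equal between the pools, Cox7a2l (0.06) and Ndufaf7 (0.03). Ndufv3 was lower at -0.60, and the median difference of the 6 was 0.12. On the other chromosomes 17 of 75 kept members were higher (22.7%), with a median of -0.25. Over all 305 kept genes of chromosome 17, 47.9% were higher and the median was -0.02. The strain labels of the pools differ, and the part of strain in these values was not tested.

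Probe sets annotated to several genes, among them chain genes, were no members. Those of the Ndufb4 family, a complex I subunit with near-identical copies, were at 1064 and 927, and at 1867 and 1324. That of Ndufa11 and Ndufa11b was at 693 and 551, and that of Ndufs6 and Ndufs6b at 1014 and 1097. Of these 4, the probe set of Ndufs6 was the only one that was higher in the knockout pool.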
